A study of Mus musculus with 2 samples.

Results

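The microRNAs (miRNAs) described here are the mature products of 13 hairpins of the imprinted Dlk1-Dio3 domain on mouse chromosome 12: miR-127, miR-136, miR-337, miR-370, miR-431, miR-432, miR-433, miR-434, miR-493, miR-540, miR-665, miR-673 and miR-770. They were chosen by name, with every 5p and 3p product that the deposited table lists. The rule uses no measured value, although the group was proposed with earlier results of these data known. This gave 25 members of the 1147 entries in the table, of which 1080 were mature miRNAs. Of the 25 members, 23 averaged at least 10 over both libraries, 14 at least 100 and 8 at least 1000.

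Small RNA was sequenced from the muscle layer (tunica muscularis) of the jejunum of mice on the C57BL/6 background at 15 days of age, to ask how miRNA levels differ once the muscle has lost *Dnmt1*, the DNA methyltransferase that copies methylation to the new strand after replication. *Dnmt1*-KO animals lacked *Dnmt1* in cells that express *smMHC* (*Myh11*) Cre-eGFP, and *Dnmt1*-WT animals carried the same *smMHC* Cre-eGFP transgene, so both groups share the Cre and the reporter. The strain label of both samples names the Tg(Myh11-cre,-EGFP)2Mik line together with *Dnmt1* lox/lox. For the WT sample the lox/lox part differs from the study's description, which gives *Dnmt1*-WT mice as *smMHC* Cre-eGFP/+. The *Myh11* promoter drives Cre in smooth muscle from embryonic life, so other cells of the layer, such as neurons and leukocytes, keep *Dnmt1* in either genotype. There was 1 library per genotype. Per the study's methods, RNA came from males and females of each genotype, and pooling of animals is not described. A free-text field of both samples names the mutant genotype. For the WT sample this goes against its title, its genotype and its column header, so the latter were used. The *Dnmt1* message is not in a small RNA table, and the labels could not be checked against the deleted gene.

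The variation among animals is unknown with this design, and no p-value was computed. Each comparison is between 2 libraries. Deposited values were read counts multiplied by a factor close to 1 in each library, and they summed to 5741906.3 in WT and 4754677.2 in KO, or 5725638 and 4768127 implied reads. The KO/WT ratio of a member is that of the deposited values. The range in brackets after a ratio is a 95% interval, obtained by the exact Clopper-Pearson method from the reads of both libraries, that after a 5p ratio over a 3p ratio is an exact conditional 95% interval unless another is named, and that after a share is a Wilson 95% interval. These treat each read as an independent count, so they cover counting error only and not variation among animals. Reads carried no molecular identifiers, so copies made by amplification could not be told from separate molecules. The intervals may therefore be too narrow even for counting error. The KO total was 0.828 of the WT total, and scaling to equal totals would multiply every ratio by 1.21. Values with equal totals are therefore given for members, hairpins and marker lists that change direction or cross 2.

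In this domain the genes *Dlk1*, *Rtl1* and *Dio3* are expressed from the paternal chromosome, and the non-coding RNAs *Meg3*, anti-*Rtl1*, *Rian* and *Mirg* from the maternal one. The choice is set by DNA methylation of a control region upstream of *Meg3* on the paternal copy. The domain holds one of the largest groups of miRNAs in the mouse genome. Those transcribed antisense to *Rtl1* are fully complementary to its message and can direct its cleavage.

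By the GENCODE M21 annotation of GRCm38, all 13 hairpins lay on the plus strand within 54.6 kb. *Meg3* spans chr12:109541001-109571726, and miR-770 was in an exon of it. The hairpins of miR-673, miR-493, miR-337, miR-540 and miR-665 lay between *Meg3* and *Rtl1* and overlapped no other annotated gene. The hairpins of miR-431, miR-433, miR-127, miR-434, miR-432 and miR-136 lay within 4.9 kb, each opposite a coding exon of *Rtl1*, which is read from the minus strand at chr12:109589193-109600330. The hairpin of miR-370, at chr12:109618258-109618336, was in an intron of *Rian*, so it belongs neither to *Meg3* nor to anti-*Rtl1*.

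Mature sequences were found for 25 of the 25 members in RefSeq (GRCm38.p6). Those shown are the 5 leading products of the *Rtl1* antisense hairpins with the minor arms of miR-127 and miR-136, the abundant miR-433-3p and miR-337-5p, and the products with the highest and lowest ratios. They are written 5′ to 3′, with the seed (bases 2 to 8) in capitals.
mmu-miR-127-3p: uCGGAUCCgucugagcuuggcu
mmu-miR-127-5p: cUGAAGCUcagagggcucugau
mmu-miR-434-3p: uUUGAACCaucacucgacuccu
mmu-miR-434-5p: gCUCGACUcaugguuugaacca
mmu-miR-136-3p: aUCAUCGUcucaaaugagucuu
mmu-miR-136-5p: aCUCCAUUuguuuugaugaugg
mmu-miR-431-5p: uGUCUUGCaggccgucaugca
mmu-miR-433-3p: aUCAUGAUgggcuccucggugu
mmu-miR-337-5p: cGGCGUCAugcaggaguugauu
mmu-miR-540-3p: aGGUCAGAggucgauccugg
mmu-miR-673-3p: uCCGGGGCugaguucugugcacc
mmu-miR-770-5p: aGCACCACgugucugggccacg
The 25 members had 25 different seeds, so none shares its seed with another member. The seed fixes most of what a miRNA can pair with, and by this measure the members are not a family. Of the 1080 mature entries, 918 had a RefSeq sequence, and among these only 3 members shared a seed with an entry outside the group. The seed of miR-673-5p was shared with miR-6985-3p and that of miR-540-3p with miR-6915-5p, both at 1.0 in 1 library and 0 in the other. The seed of miR-370-5p was shared with miR-1193-3p, a product of the distal miRNAs of the domain, at 56.2 in WT and 76.8 in KO.

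The hairpins of miR-127, miR-434 and miR-136, the source of the most abundant products together with miR-431, are shown for how close the arms lie. The mature arms are in capitals, and each hairpin is read from the plus strand of chromosome 12 (GRCm38.p6), miR-127 at chr12:109592846-109592915, miR-434 at chr12:109594506-109594599 and miR-136 at chr12:109595327-109595388.
miR-127: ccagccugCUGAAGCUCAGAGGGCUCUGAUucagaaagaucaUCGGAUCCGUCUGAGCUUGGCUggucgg
miR-434: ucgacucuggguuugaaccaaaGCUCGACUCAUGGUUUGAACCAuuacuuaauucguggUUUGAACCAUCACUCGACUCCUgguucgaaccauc
miR-136: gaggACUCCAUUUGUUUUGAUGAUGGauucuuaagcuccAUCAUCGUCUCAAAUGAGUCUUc
The loops between the arms held 12, 15 and 13 bases. In miR-434 the arms shared a run of 9 bases, the last of the 5p product and the first of the 3p product, and in miR-431 a run of 10 bases. Among the 12 hairpins with a sequence for both arms, the other hairpins shared runs of 3 to 6 bases. No member had the sequence of another, so full-length reads can be told apart.

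Each of the 11 products of the *Rtl1* antisense hairpins had an exact complementary site in the *Rtl1* transcript, and none of the other 14 members had one. The sites of the leading product of miR-127, miR-434 and miR-136 are given 5′ to 3′ along the transcript, with the bases opposite the seed in capitals.
site of miR-127-3p: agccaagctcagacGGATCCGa
site of miR-434-3p: aggagtcgagtgatGGTTCAAa
site of miR-136-3p: aagactcatttgagACGATGAt
These sites follow from transcription of both strands and describe position only. The table does not hold *Rtl1* RNA.

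The members together made up 2.70% of the WT library (2.69 to 2.71) and 5.36% of the KO library (5.34 to 5.38), so their share was 1.99 times as high in KO. Their summed deposited values were 154989.6 in WT and 254750.6 in KO, a ratio of 1.64 (1.63 to 1.65). One product carried most of this. Without miR-127-3p the sums were 27415.7 and 38481.1, a ratio of 1.40 (1.38 to 1.43).

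**Figure D1:**
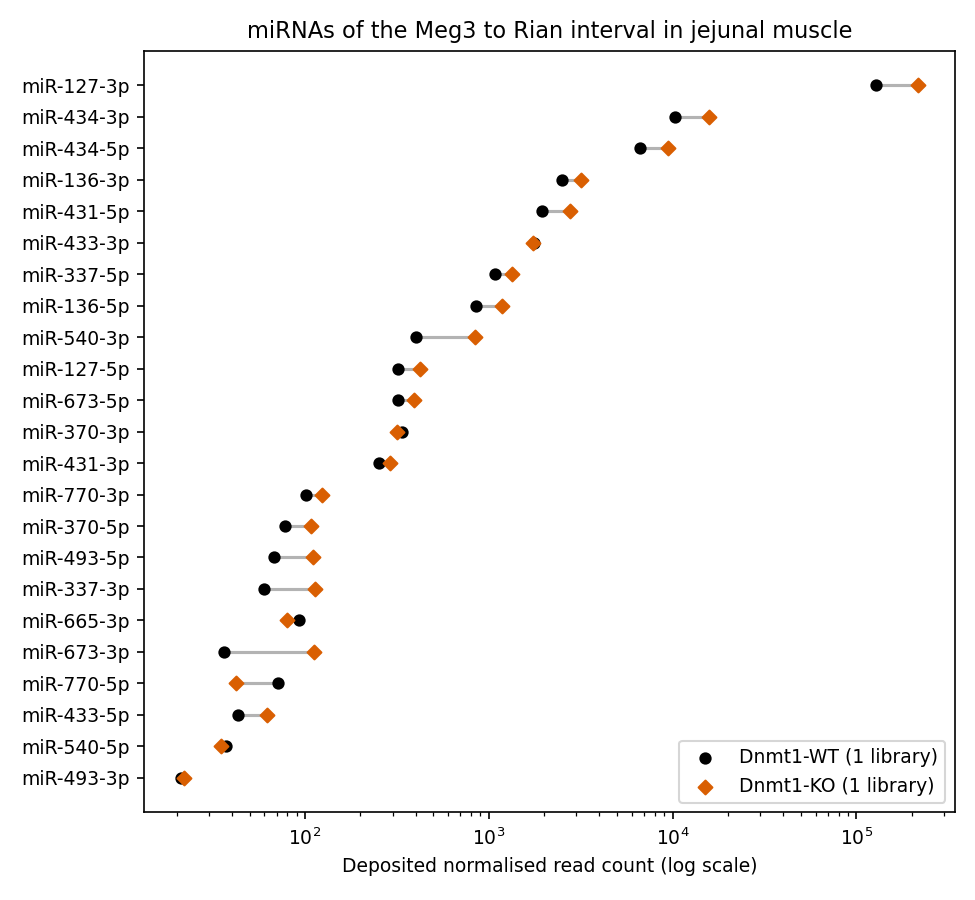
Deposited normalised read count on a log axis for the 23 members that averaged at least 10, ordered by that mean, in the 1 *Dnmt1*-WT library (black circles) and the 1 *Dnmt1*-KO library (orange diamonds), with a grey line joining the libraries. The KO value is to the right for 18 members, and miR-127-3p lies more than an order of magnitude above the next product in either library.

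The product mmu-miR-127-3p, whose known targets include *Bcl6*, had 127573.9 in WT and 216269.5 in KO. Its KO/WT ratio was 1.695 (1.68 to 1.71), and it went from the 11th to the 5th most abundant mature miRNA of the table. Within the group it held 82.3% of the sum in WT and 84.9% in KO, a measure that no scaling of the libraries can change. Of 136 mature entries that averaged at least 1000, 9 had a higher ratio. Whether it stayed under 2 depended on the scale, since with equal totals its ratio was 2.05 (2.03 to 2.06), with totals made equal without miR-143-3p it was 1.91, and its share of the library went from 2.22% to 4.55%.

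The minor arm mmu-miR-127-5p had 320.9 in WT and 424.8 in KO, a ratio of 1.32 (1.14 to 1.54). The major arm was 461-fold more abundant, so the 3p product made up 99.75% of the hairpin's reads in WT (99.72 to 99.78) and 99.80% in KO (99.78 to 99.82). The 5p ratio was 0.781 of the 3p ratio (0.675 to 0.903, a normal interval on the log scale). Both arms were therefore higher in KO and by amounts that differed beyond counting error.

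From miR-434, mmu-miR-434-3p had 10353.3 in WT and 15708.4 in KO, a ratio of 1.52 (1.48 to 1.56). The other arm, miR-434-5p, had 6673.9 and 9499.1, a ratio of 1.42 (1.38 to 1.47). This hairpin yields both arms in quantity, and they moved nearly together. The 3p product held 60.8% of the hairpin in WT (60.1 to 61.5) and 62.3% in KO (61.7 to 62.9), and the 5p ratio was 0.938 of the 3p ratio (0.901 to 0.977).

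From miR-136, mmu-miR-136-3p had 2500.1 in WT and 3189.0 in KO, a ratio of 1.28 (1.21 to 1.35). The 5p product mmu-miR-136-5p had 853.4 and 1175.7, a ratio of 1.38 (1.26 to 1.51). The arms of miR-136 were not separated by counting error, with a 5p ratio 1.08 times the 3p ratio (0.974 to 1.20). The 3p product was the more abundant arm in both libraries, at 74.6% in WT and 73.1% in KO.

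The first hairpin of the antisense group in chromosome order is miR-431, a miRNA known in skeletal muscle satellite cells as a repressor of *Pax7*. Its miR-431-5p had 1945.5 in WT and 2766.2 in KO, a ratio of 1.42 (1.34 to 1.51). The minor miR-431-3p had 251.7 and 289.2, a ratio of 1.15 (0.967 to 1.37), an interval that holds 1. With equal totals it was at 1.39 (1.17 to 1.65), an interval above 1. The 3p share of this hairpin was 11.5% in WT and 9.47% in KO.

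The hairpin of miR-433 stood apart from these neighbours. Its major product miR-433-3p had 1768.0 in WT and 1740.1 in KO, a ratio of 0.984 (0.921 to 1.05), and its minor miR-433-5p had 43.1 and 61.8, a ratio of 1.43 (0.956 to 2.17). Summed over both arms the miR-433 ratio was 0.995 (0.932 to 1.06), or 1.20 (1.13 to 1.28) with equal totals. The hairpins on either side had summed ratios of 1.39 (1.32 to 1.47) for miR-431 and 1.69 (1.68 to 1.71) for miR-127, the latter 2.05 with equal totals, although the starts of all 3 lay 49.4, 50.7 and 51.8 kb from the start of *Meg3*. With equal totals miR-433-3p was at 1.19 (1.11 to 1.27), above 1 and still below its neighbours. The minor miR-433-5p was then at 1.732 (1.155 to 2.617), an interval above 1. The product miR-432 had 1 read in WT and none in KO and could not be compared.

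Summed over the 11 antisense products, values went from 152284.8 in WT to 251123.8 in KO, a ratio of 1.65 (1.64 to 1.66), and without miR-127 the ratio was 1.41 (1.39 to 1.44). Of the 10 antisense products that averaged at least 10, 9 were higher in KO, and for 7 the interval was above 1, against 52.2% and 32.0% of all mature entries at that mean. Their ratios ran from 0.984 to 1.695 with a median of 1.40. None of the 10 reached 2 on the deposited scale, where 11.4% of all mature entries at that mean did, and with equal totals miR-127-3p did.

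The 5 hairpins between *Meg3* and *Rtl1* were much less abundant and more uneven. Together they had 2118.1 in WT and 3038.4 in KO, a ratio of 1.43 (1.36 to 1.52). Of the 9 products that averaged at least 10, 7 were higher in KO, where 52.2% of all mature entries were, for 6 the interval was above 1, where it was for 32.0% of all, and the median ratio was 1.23. On the deposited scale 2 of the 9 reached 2, where 11.4% of all did.

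The highest ratio was that of miR-673-3p, with 36.1 in WT and 111.7 in KO, a ratio of 3.09 (2.11 to 4.64). It is the minor arm of its hairpin. The major arm, miR-673-5p, had 318.9 and 392.9, a ratio of 1.23 (1.06 to 1.43). The 3p share of miR-673 went from 10.2% (7.44 to 13.8) to 22.1% (18.7 to 26.0), and the intervals of the libraries did not overlap.

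The second was miR-540-3p, with 400.1 in WT and 842.6 in KO, a ratio of 2.11 (1.87 to 2.38). Its interval holds 2, and 16 of the 313 mature entries with a mean of at least 100 had a higher ratio. The minor miR-540-5p had 37.1 and 34.9, a ratio of 0.941 (0.575 to 1.54), or 1.14 (0.695 to 1.85) with equal totals. On either scale the 5p ratio was 0.447 of the 3p ratio (0.269 to 0.742). Summed over both arms, miR-540 was at 2.01 (1.79 to 2.26), against 1.26 (1.17 to 1.36) for miR-337 and 0.875 (0.641 to 1.19) for miR-665, or 1.06 with equal totals, the hairpins on either side of it, with starts at 44.8, 45.1 and 45.3 kb from the start of *Meg3*.

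The hairpin of miR-337 gave mostly its 5p product. There were 1084.1 of miR-337-5p in WT and 1330.2 in KO, a ratio of 1.23 (1.13 to 1.33). For miR-337-3p there were 60.2 and 112.7, a ratio of 1.87 (1.36 to 2.61), which passed 2 with equal totals, at 2.26 (1.64 to 3.15). The 3p share was 5.26% in WT (4.11 to 6.71) and 7.81% in KO (6.54 to 9.31).

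For miR-493-5p the values were 68.2 in WT and 110.7 in KO, a ratio of 1.62 (1.19 to 2.23). The minor miR-493-3p had 21.1 and 21.9, a ratio of 1.04 (0.546 to 1.99). At this depth the arms of miR-493 could not be told apart, with a 5p ratio 1.56 times the 3p ratio (0.752 to 3.21). The product miR-665-3p had 92.3 and 79.8, a ratio of 0.865 (0.633 to 1.18), or 1.04 (0.764 to 1.43) with equal totals, and miR-665-5p had no read in WT and 1 in KO. A count of 0 allows up to 3 reads, a share of 5.24e-05% in WT and 6.29e-05% in KO.

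In *Meg3* itself, miR-770-5p was the one member whose interval lay below 1, with 71.2 in WT and 41.9 in KO, a ratio of 0.589 (0.392 to 0.874). With equal totals its interval held 1, at 0.711 (0.473 to 1.06). The other arm, miR-770-3p, had 101.3 and 123.7, a ratio of 1.22 (0.931 to 1.60), or 1.475 (1.125 to 1.937) with equal totals, an interval above 1. The arms went in opposite directions, the 3p share was 58.7% in WT (51.3 to 65.8) and 74.7% in KO (67.6 to 80.7), and the hairpin's sum was 0.960 (0.771 to 1.20), or 1.16 (0.931 to 1.44) with equal totals.

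In *Rian*, miR-370-3p had 336.0 in WT and 315.1 in KO, a ratio of 0.938 (0.802 to 1.10), or 1.13 (0.968 to 1.33) with equal totals. The minor miR-370-5p had 78.2 and 107.7, a ratio of 1.38 (1.02 to 1.87). Whether the hairpin's sum differed beyond counting error depended on the scale, since it was at 1.02 (0.889 to 1.17) as deposited and at 1.23 (1.07 to 1.42) with equal totals.

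Among the 23 members that averaged at least 10, 18 were higher in KO and 5 lower, where 52.2% of all 534 mature entries with that mean were higher. With equal totals 22 were higher and 1 lower, where 66.9% of all were higher, because miR-433-3p, miR-370-3p, miR-665-3p and miR-540-5p passed 1. On the deposited scale the interval lay above 1 for 14 members, where 32.0% of all 534 entries had such an interval, held 1 for 8 and lay below 1 for 1, where 28.8% of all did. With equal totals it lay above 1 for 18 members, where 47.2% of all did, and below 1 for none, where 18.5% of all did. At a mean of 100 or more, 12 of 14 members had a ratio above 1 on the deposited scale, where 47.9% of all 313 entries did, and 14 of 14 with equal totals, where 65.2% did. At a mean of 1000 or more it was 7 of 8 on the deposited scale, where 41.2% of all did.

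Over these 23 members the median ratio was 1.32, or 0.41 on the log2 scale. Over the 522 mature entries with the same mean and above 0 in both libraries it was 1.03, or 0.04 on the log2 scale. Members cut from a shared transcript are not independent of each other, and whether the group stands apart from other entries was not tested.

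Most members stayed under 2. On the deposited scale 2 of 23 reached 2, miR-673-3p and miR-540-3p, where 11.4% of all entries with a mean of at least 10 did, and none was at 0.5 or under, where 8.99% of all were. At a mean of at least 100 it was 1 of 14, miR-540-3p, where 6.39% of all did. At a mean of at least 1000 it was 0 of 8, where 4.41% of all did. The interval was entirely under 2 for 18 of 23 members, where it was for 72.5% of all 534 entries, held 2 for 4, and was entirely above 2 for miR-673-3p alone, where it was for 5.99% of all. With equal totals 4 members reached 2, where 19.7% of all did. These were miR-127-3p, miR-540-3p, miR-337-3p and miR-673-3p, and for all but miR-337-3p the interval was entirely above 2, where it was for 8.43% of all. It was entirely under 2 for 15 members, where it was for 62.4% of all.

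**Figure D2:**
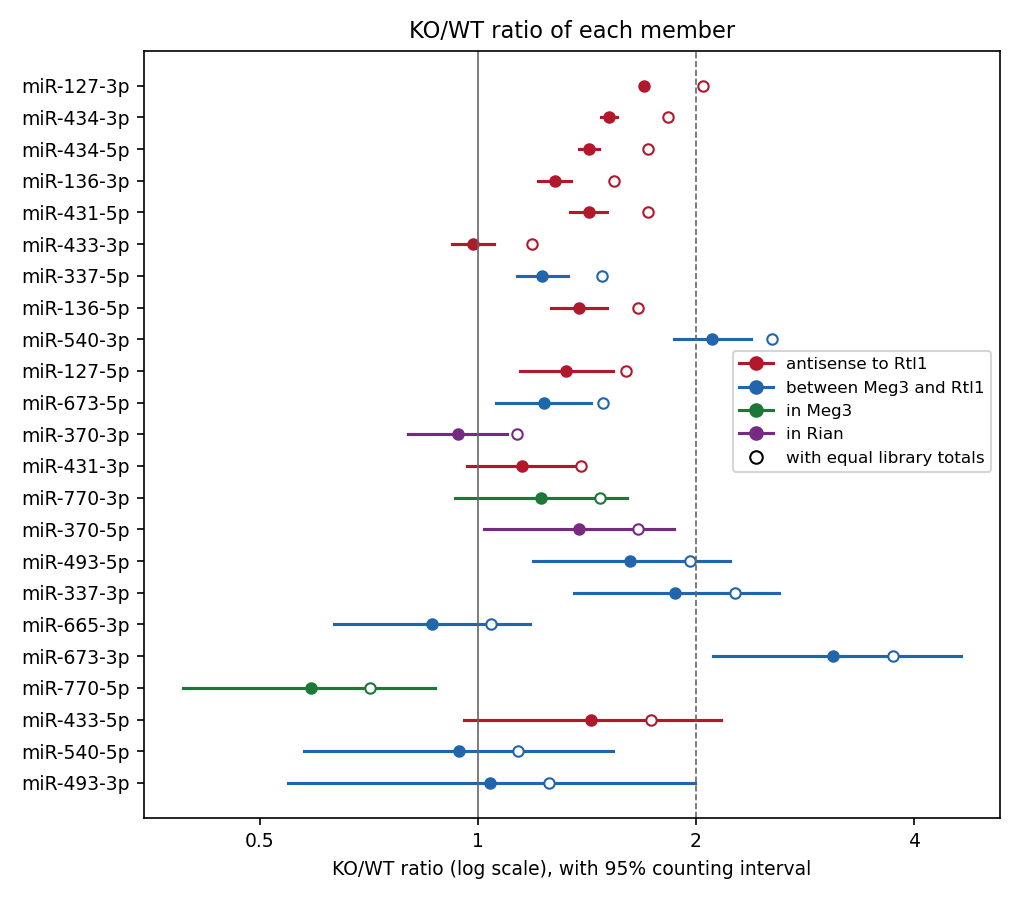
KO/WT ratio on a log axis for the 23 members that averaged at least 10, most abundant at the top, with filled circles for the deposited scale, bars for the 95% counting interval, open circles for equal library totals and colours for position. The solid line marks 1 and the dashed line 2, and miR-127-3p moves from 1.695 to 2.05 between the scales.

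The arms of a hairpin come from the same precursor, and a ratio of their ratios does not depend on library scaling. Both arms had a mean of at least 10 in 11 of the 13 hairpins. In 7 of these both arms were higher in KO, where 36.2% of all 152 such hairpins of the table had both higher. In the others, miR-370, miR-433, miR-540 and miR-770, the arms went in opposite directions on the deposited scale, and with equal totals this was left to miR-770. Of all 152 such hairpins, 102 had both arms in the same direction on the deposited scale. The count over all hairpins with equal totals is not given here. The 5p and 3p ratios were at least 2-fold apart in 3 hairpins, miR-673, miR-770 and miR-540, where 23.0% of all were. In each of these the 3p product had the higher ratio, whether it was the minor arm, as in miR-673, or the major one.

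The interval of the 5p ratio over the 3p ratio left out 1 for 8 of the 11 hairpins, where 51.3% of all 152 did, and held 1 for miR-136, miR-433 and miR-493. The median distance between the arms was 1.47-fold, beside 1.45-fold in the 141 other hairpins. In the 4 hairpins with both arms at a mean of at least 100, miR-127, miR-136, miR-431 and miR-434, it was 1.16-fold and none was 2-fold apart, beside 1.45-fold and 12 of 58 in the others. These 4 are all antisense to *Rtl1*. So is miR-433, whose 5p product averaged 52.4 and whose arms were 1.46-fold apart. Whether abundance or position goes with the smaller distance was not tested.

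**Figure D3:**
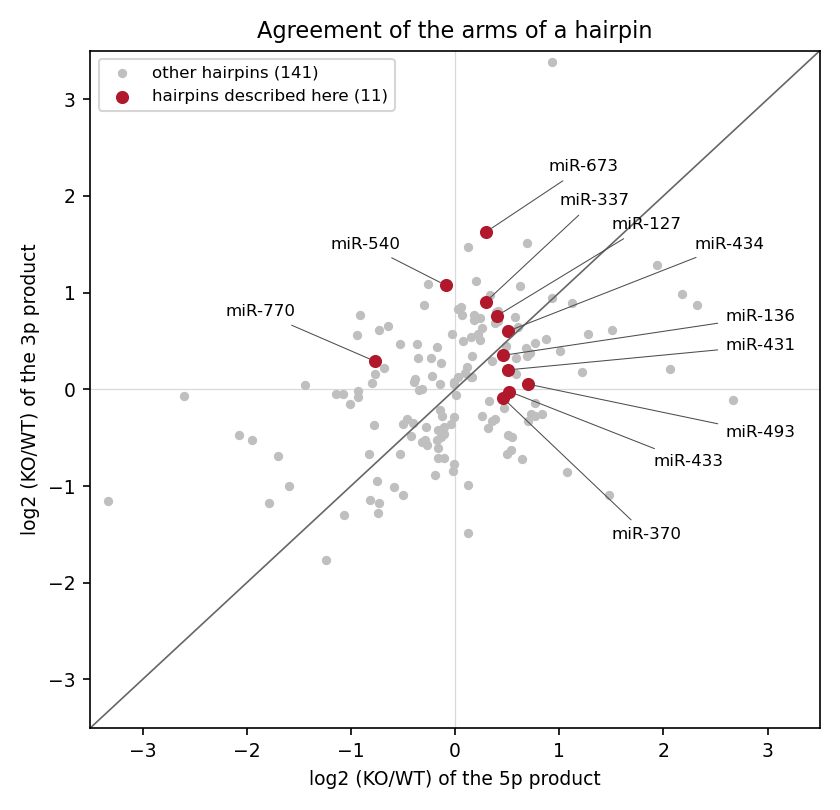
Log2 KO/WT ratio of the 3p product against that of the 5p product for hairpins with both arms at a mean of at least 10, with the 11 hairpins described here in red and labelled, the 141 others in grey, and the diagonal marking equal ratios. The hairpins miR-434 and miR-136 lie near the diagonal, and miR-673, miR-540 and miR-770 lie above it.

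The same domain holds a distal group of miRNAs around *Mirg*, of which 72 entries of the table could be found by name. Their values summed to 66920.1 in WT and 94702.9 in KO, a ratio of 1.42 (1.40 to 1.43), beside 1.64 for all members. The distal sum includes its own leading product, so it is not set against that of the members without miR-127-3p. Of the 59 distal entries with a mean of at least 10, 48 were higher in KO, where 52.2% of all 534 mature entries were, 4 reached 2, where 11.4% of all did, and the median ratio was 1.37 beside 1.32 for the members. The leading distal product, miR-541-5p, had 33694.3 and 55950.3, a ratio of 1.66 just below that of miR-127-3p. Next to it in abundance among those higher were miR-410-3p at 1.49 (1.43 to 1.55) and miR-381-3p at 1.43 (1.37 to 1.49), in the range of miR-434 and miR-431. The exception among the 9 distal products with a mean of at least 1000 was miR-382-5p, lower in KO at 0.639, a value that no member of that abundance approached.

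**Figure D4:**
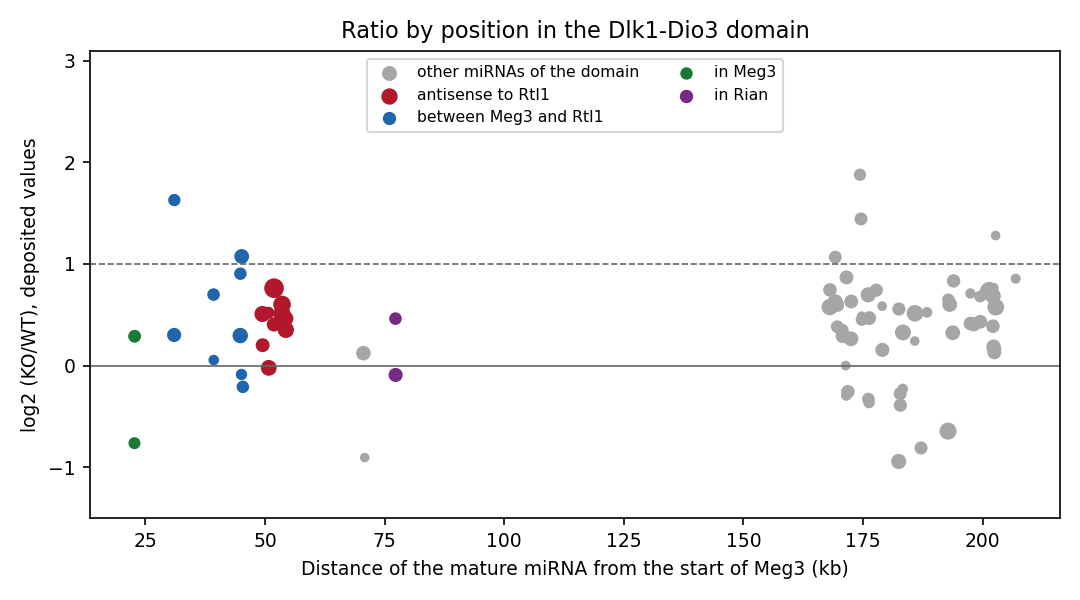
Log2 KO/WT ratio of deposited values by distance from the start of *Meg3* in kb, for entries with a mean of at least 10 and above 0 in both libraries, with members coloured by position, other miRNAs of the domain in grey and a larger point for a higher mean. The solid line marks 0 and the dashed line a 2-fold higher value, and the points antisense to *Rtl1*, near 50 kb, lie between 0 and 1 except for miR-433-3p at -0.02.

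Marker miRNAs of smooth muscle and of other cell types differed between the same libraries. The 7 smooth muscle miRNAs listed for this purpose, led by miR-143-3p, were all lower in KO and summed to 2217538.4 in WT and 1446557.1 in KO, a ratio of 0.652. All 8 leukocyte miRNAs were higher, with a summed ratio of 1.41. So were all 4 red cell miRNAs, with 3.71, and both endothelial ones, with 1.42. The red cell sum was almost all miR-486a-5p, at 12591.6 of 12745.0 in WT and 46756.4 of 47217.1 in KO. The 4 fibroblast and mesenchymal miRNAs found of 5 listed were also higher, with 1.47. Of these, miR-214-3p was at 2.78 and the others ran from 1.07 to 1.18, with a list median of 1.13. Of all 534 mature entries with a mean of at least 10, 52.2% were higher on the deposited scale. Of the 8 epithelial miRNAs 4 were higher and 4 lower on the deposited scale. All 8 were higher with equal totals, where 66.9% of all 534 entries were. Of the 5 neural ones 2 were higher and 3 lower on either scale, with a summed ratio of 0.844 as deposited and 1.02 with equal totals. No listed marker was at 0 in either library. The part of these in the values of the members was not tested, and fewer cells of a type and less RNA per cell cannot be told apart in bulk tissue.

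The smooth muscle lists also bear on the scale. In WT 31.0% of the library was miR-143-3p alone, and in KO 25.9%. With totals made equal without it, the summed ratio of the members was 1.85, between 1.64 on the deposited scale and 1.99 with equal totals. Shares within a hairpin and within the group do not move with these choices.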

How the data were processed

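Small RNA was isolated with the mirVana kit, libraries were made with the Illumina TruSeq Small RNA kit, and a commercial provider sequenced and annotated them. The submitters' processing notes name Bowtie and mm10. The miRNA database release, the handling of reads that match several miRNAs and the scaling are not given in the sources used here. The deposited table gives a normalised read count per entry and library. That the authors' values are reads times a factor was worked out from them: of the values from 20 to 300, 88.6% of 229 in WT and 91.1% of 248 in KO were whole multiples of 1.00284 and 0.99718, within 0.06, against a median of 8.73% and 8.87% for other steps. All 11 member values in that range in each library were whole multiples. The authors' own fold change column was not used.

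Values were read with Python 3.11.15 and pandas 2.3.3, and intervals came from scipy 1.17.1. Step finding and intervals were tested on simulated data. These held independent reads times a fixed factor, as the methods assume, so duplicate reads and variation among animals were not tested. With 1 library per genotype no test was possible. Calls were a ratio above 1 or of at least 2, with no pseudocount, at a mean of at least 10. All members at that mean are named with their values, and those under it are named where their hairpin is described. The members, the distal list and the marker lists were chosen with earlier results of these data known. The alternatives tried were another scale, another minimum or pseudocount, 1 product per hairpin, a distal list by coordinates and, added after seeing the data, the group without miR-370.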

Additional observations from a re-analysis of the deposited data

How the results depend on the processing

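With 1 library per genotype no replicate could be left out, and agreement between animals is unknown. No paired analysis was possible because each genotype has 1 library. The count of members at 2 or more, 2 of 23 on the deposited scale, was 4 with equal totals, 3 with equal totals without miR-143-3p, where miR-127-3p was at 1.91, 1 at a minimum mean of 100, 0 at 1000 and 1 with only the more abundant product of each hairpin. The count of higher members, 18, was 7 at a minimum mean of 1000 and 9 with 1 product per hairpin, where 8 and 12 members were left and, at 1000, 41.2% of all entries were higher and 4.41% were at 2 or more. For totals without miR-143-3p and for 1 product per hairpin, the share of all entries is not given. The counts under these settings therefore cannot be set against it. The median log2 ratio of 0.41 was 0.68 with equal totals. The summed ratio of 1.64 was 1.99 with equal totals, 1.85 with equal totals without miR-143-3p, and 1.68 with the median entry set to 1. Without miR-127-3p these were 1.695, 1.58 and 1.43, against 1.40. The median log2 distance between arms, 0.55, was 0.21 at a minimum mean of 100, where 4 of 11 hairpins were left. Under the scalings and without miR-370, the summed ratio of all members and that without miR-127-3p stayed above 1, and the median log2 ratio stayed above 0 under every setting tried for it. Among single hairpins, the sums of miR-433, miR-665 and miR-770 passed from below to above 1 with equal totals, to 1.20, 1.06 and 1.16. Pseudocounts of 1 and 10 moved none of the 23 member ratios beyond its interval, and equal totals moved 13. Leaving out miR-370, chosen after seeing the data, gave 17 of 21 members higher and the same 2 members at 2 or more. A distal list by coordinates gave a median log2 ratio of 0.48 against 0.45 by name. Members under about 100 reads carry wide intervals, and a change of less than 1.5-fold was often not detectable there.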

Other observations

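The miRNAs of the same stretch that the list of names does not hold were mostly at the limit of detection. Between the antisense group and miR-370, miR-341-3p had 488.4 in WT and 531.5 in KO, a ratio of 1.09 (0.961 to 1.23), and its other arm miR-341-5p had 3.0 and 2.0. The product miR-1188-5p had 15.0 and 8.0, a ratio of 0.533 (0.195 to 1.33). The products miR-3070-3p, miR-3070-2-3p and miR-1188-3p had at most 1 read in either library. On the deposited scale no entry of this stretch outside the list had an interval that left out 1. Scaling to equal totals, which multiplies every ratio by 1.21, would lift the interval of miR-341-3p above 1.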
